A study of Mus musculus with 16 samples.

Results

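AP-1 transcription factors were followed through mouse bone marrow as 8 genes, Jun, Junb, Jund, Fos, Fosb, Fosl2, Atf3 and Batf, taken by symbol from the 27998 genes of the deposited count matrices, where each symbol had 1 row. The cells came from 4 groups of 4 C57BL/6 mice aged 6 to 12 weeks. WT mice carried the floxed Tet2 gene without Cre (Tet2fl/fl), and Tet2-KO mice were Vav-Cre-Tet2-/-. Mice of each genotype received intraperitoneal vehicle or IL1β, 500 ng per mouse daily, over 5 weeks. The Vav promoter drives Cre throughout the blood lineage and only the Tet2-KO mice carried Cre, so the effects of Cre and of Tet2 loss cannot be told apart. Marrow was flushed, red cells were lysed and mature cells were depleted with a lineage kit, and single cells were captured with a 3′ droplet method. In each of the 8 libraries a pair of mice from the same group was run together, with a hashtag antibody to mark each mouse, so that every group had a library of replicates 1 & 2 and a library of replicates 3 & 4.

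AP-1 is a dimer of basic leucine zipper proteins that binds DNA and switches genes on or off. Jun, Junb and Jund encode the Jun subunits, which pair with each other or with Fos subunits (Fos, Fosb, Fosl2), while Atf3 and Batf encode related partners that often restrain transcription or redirect it. Fos, Fosb, Jun, Junb and Atf3 are immediate early genes, which cells switch on within minutes of a stimulus such as a cytokine, stress or tissue handling, through MAP kinases that act on transcription factors already bound to their promoters. IL1β signals through its receptor, MYD88, TAK1 and the NF-κB, JNK and p38 pathways. In the marrow, Jun and Fos proteins take part in monocytic differentiation, Junb restrains the expansion of stem and myeloid cells, and Batf is best known in lymphocytes and dendritic cells.

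The positions are those of GRCm38, the build of the matrices. Jun (chr4:95049034-95052222, minus strand), Junb (chr8:84974484-84978718, minus strand) and Jund (chr8:70698949-70700616, plus strand) are genes whose transcript has a single exon. Fos lies at chr12:85473890-85477273 on the plus strand and Batf on the same chromosome and strand at chr12:85686669-85709087. Fosb lies at chr7:19302696-19310051 on the minus strand, Fosl2 at chr5:32135801-32157842 on the plus strand and Atf3 at chr1:191170296-191218039 on the minus strand. The 3′ end of Junb overlaps Prdx2 on the other strand, and Jun, Jund and Atf3 overlap the annotated genes Junos, Gm11175 and Gm24748. Whether the counting used strand is not given in the sources used here, so reads in these overlaps may be shared. With IL1β the Prdx2 estimates were negative, called in some types and not in others. In WT CFU-E-like cells Prdx2 fell by 0.71 on the log2 scale (SE 0.12, adjusted p = 0.000396, edgeR). In WT MPP-like cells its change was −0.44 (SE 0.20, adjusted p = 0.298). The part of shared reads in the Junb counts was not tested.

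The promoters of Fos, Fosb and Junb are shown because the comparisons below turn on them, Fos and Fosb between libraries and Junb with IL1β. Each sequence runs 5′ to 3′ from 250 bases before to 50 bases after the RefSeq start (GRCm38.p6). Capitals mark the letters TGACG, the core of the cAMP response element TGACGTCA.

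Fos promoter, chr12:85473640-85473939, plus strand: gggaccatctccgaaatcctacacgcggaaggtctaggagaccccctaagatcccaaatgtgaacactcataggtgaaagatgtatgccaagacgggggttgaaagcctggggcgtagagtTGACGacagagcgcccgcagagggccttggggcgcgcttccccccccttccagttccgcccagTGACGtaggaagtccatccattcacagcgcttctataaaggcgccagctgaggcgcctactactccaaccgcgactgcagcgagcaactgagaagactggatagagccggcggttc

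Fosb promoter, chr7:19309996-19310295, minus strand: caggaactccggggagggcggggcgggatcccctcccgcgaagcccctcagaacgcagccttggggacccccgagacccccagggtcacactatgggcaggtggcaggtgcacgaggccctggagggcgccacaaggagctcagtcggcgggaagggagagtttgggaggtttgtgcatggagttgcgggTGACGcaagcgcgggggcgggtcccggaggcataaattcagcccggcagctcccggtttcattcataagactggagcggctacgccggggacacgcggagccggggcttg

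Junb promoter, chr8:84978699-84978998, minus strand: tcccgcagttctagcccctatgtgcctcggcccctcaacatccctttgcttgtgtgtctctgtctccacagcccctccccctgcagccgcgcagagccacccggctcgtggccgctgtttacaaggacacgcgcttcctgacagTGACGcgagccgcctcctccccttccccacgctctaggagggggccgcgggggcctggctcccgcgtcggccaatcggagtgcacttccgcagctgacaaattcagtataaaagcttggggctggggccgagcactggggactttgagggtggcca

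TGACG occurred 2 times in the Fos promoter, first at position −129 from the start, and once each in Fosb (−60), Junb (−106), Batf (−98) and, on the minus strand, Atf3 (−7). Of 32851 mouse promoters of this length, 20.8% held these letters on either strand. The whole element TGACGTCA (1.79% of promoters), the AP-1 site TGACTCA (5.2%), the CArG box bound by SRF (1.63%) and the STAT site TTCNNNGAA (8.3%) were searched on both strands and had no match in the window of any of the 8 genes. The NF-κB site matched in Fos (−214, minus strand), in Fosb (−188) and in Fosl2 (first at −182), against 8.46% of promoters. A match describes letters only.

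The libraries held 52915002 to 95326908 UMIs, with a median of 4436 to 7363 UMIs per cell. Of 121405 barcodes, 94917 had at least 750 genes and at most 10% mitochondrial UMIs, 90979 of these carried no mark of a doublet, and 57896 could be given to 1 mouse. A library shared at most 59 to 101 barcodes with another library. Cells were placed in 20 gates of marker genes, which took 61313 cells (67.4%) and left 27834 (30.6%) without a class. Mature cells remained after the depletion, among them 2985 neutrophil-like and 4502 monocyte-like cells. A gate of Mpo+ Cd34+ cells is called by its genes, since its leading genes did not settle a name. Tet2 had 27.2 to 66.9 CPM (UMIs of a gene per 1000000 UMIs) in every library, and 3′ counts do not check the deletion.

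Over all gated cells the matrices held 145994 UMIs of Jun, 90126 of Fos, 65523 of Jund, 58900 of Junb, 48593 of Fosb, 5179 of Fosl2, 3739 of Batf and 1559 of Atf3. Levels are CPM, taken over the cells of 1 type in 1 library or mouse, and are compared between cell types and groups but not between genes. Jun had its highest mean in HSC-like cells, at 1482 ± 576 CPM (SD, n = 8 libraries), followed by basophil-like (1285 ± 677) and plasma-like cells (1135 ± 517). Jun was higher in HSC-like than in basophil-like cells in only 5 of these libraries. Its lowest levels were those of CFU-E-like (104 ± 63.7) and erythroblast-like cells (75.3 ± 42.3). Junb also had its highest mean in HSC-like cells (647 ± 507), but in the vehicle libraries HSC-like cells were below DC-like and plasma-like cells (230.4 against 351 and 416 CPM in the WT library of mice 1 & 2). It was low in granulocyte progenitor-like cells (67.8 ± 27.4). Jund, Fos and Fosb all had their highest level in plasma-like cells, at 790 ± 228, 1105 ± 655 and 709 ± 337 CPM. For Fos, basophil-like (844 ± 621), monocyte-like (809 ± 527), DC-like (793 ± 610) and HSC-like cells (764 ± 643) followed, and erythroblast-like cells had 26.4 ± 21.0.

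The less abundant members had narrower patterns. Fosl2 peaked in monocyte-like cells (67.0 ± 5.1 CPM) and fell to 1.4 ± 1.0 in erythroblast-like cells, with basophil-like cells (33.3 ± 6.7) next to the top. Atf3 was highest in DC-like (94.6 ± 136) and monocyte-like cells (38.4 ± 42.3), and its mean was at most 7.1 CPM in the other 15 types. Batf had 23.6 ± 5.0 CPM in HSC-like cells, 25.9 ± 18.9 in T/NK-like cells on 37 UMIs and 0.6 ± 0.5 in erythroblast-like cells. Neighbours in these orders were compared over the libraries. Of 128 neighbouring pairs, 28 had an unadjusted p under 0.05 in an exact 2-sided sign-flip permutation test over the 8 libraries, of which 16 had all libraries on the same side. The smallest p that 8 libraries can give is 0.0078125, which came to 0.0625 after adjustment over the pairs, so that no pair passed, which does not show that neighbours are alike. The pairs with all libraries on the same side include Fosl2 in monocyte-like above basophil-like cells (1.01 ± 0.25 on the log2 scale) and Fos in HSC-like above MPP-like cells (0.55 ± 0.34).

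**Figure D1:**
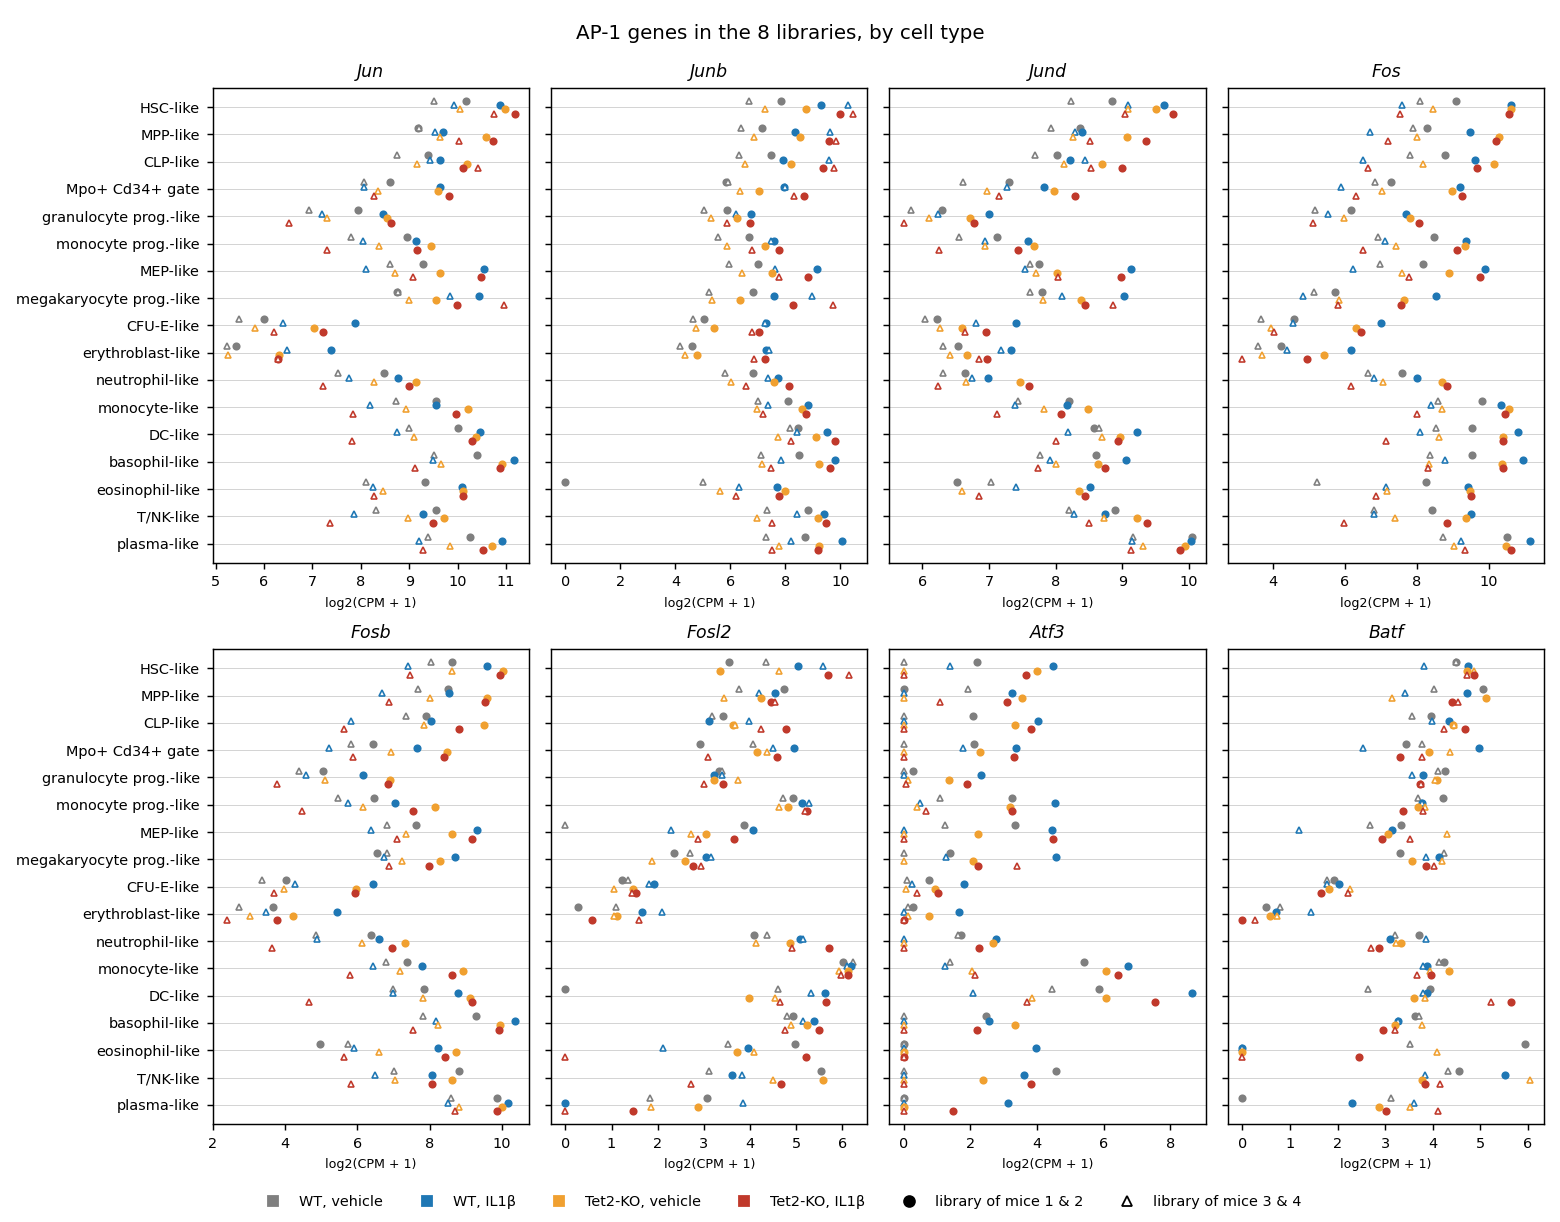
Level of each AP-1 gene in 17 cell types as log2(CPM + 1), with 1 point per library. Colour gives the group, filled circles are libraries of mice 1 & 2 and open triangles those of mice 3 & 4. For Fos, the triangle lies left of the circle of its group in 68 of 68 pairs.

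The libraries of 1 group differed from each other in these genes. Relative to the libraries of mice 1 & 2, those of mice 3 & 4 were lower for 6 members in most cell types where the member was tested. With the groups held apart, 74 of 118 tests of a member in a cell type passed the threshold (adjusted p under 0.05), all lower, against 0.924% of the 136159 tests over all genes. The median log2 difference over the members was −1.20, and that over all genes was 0.00358. The library contrast was known when these genes were chosen, so the counts, p-values and separations given for it describe the gap and do not test it. Depth and RNA quality overlapped between the libraries, with medians of 5385 to 7059 UMIs per cell and 3.77 to 5.10% mitochondrial UMIs in those of mice 1 & 2 and of 4436 to 7363 and 3.50 to 5.19% in those of mice 3 & 4. Mice, capture and library preparation all change between the libraries of a group, and they cannot be told apart.

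Fos was called lower in 17 of 17 cell types, with log2 differences from −1.57 to −2.47. In HSC-like cells the libraries of mice 1 & 2 had 577 (WT vehicle), 1524 (WT IL1β), 1593 (Tet2-KO vehicle) and 1453 CPM (Tet2-KO IL1β). Those of mice 3 & 4 had 279, 179.5, 371 and 184 CPM in the same order. The 4 libraries of mice 3 & 4 were all below the other 4 (253 ± 91.0 against 1287 ± 476, log2 difference −2.32, SE 0.23, adjusted p = 2.90e-06). In erythroblast-like cells, where Fos was lowest, the values were 12.5 ± 4.3 and 39.7 ± 21.1 CPM (−1.57, SE 0.17, adjusted p = 0.00201). The libraries of mice 3 & 4 lay below those of mice 1 & 2 without overlap in 16 of the 17 types. These types come from the same libraries, and the share of all genes without overlap was not computed.

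Fosb, a partner of Jun proteins that is induced together with Fos, was also called lower in all 17 types, with log2 differences from −1.06 to −2.15. In plasma-like cells the libraries of mice 1 & 2 had 1003, 1226, 1095 and 996 CPM for WT vehicle, WT IL1β, Tet2-KO vehicle and Tet2-KO IL1β, and those of mice 3 & 4 had 402, 358, 477 and 436. No library of mice 3 & 4 reached any library of mice 1 & 2 (log2 difference −1.38, SE 0.17). Atf3, a stress-induced member of the family, was called lower in 8 of 9 types, all but megakaryocyte progenitor-like cells. In 6 of the 8 types its mean was 0 to 0.615 CPM in the libraries of mice 3 & 4, so it passed the low-count filter through those of mice 1 & 2 and a call there could go only 1 way. DC-like and monocyte-like cells were the exceptions. In monocyte-like cells it had 43.5, 104, 68.6 and 82.4 CPM in the libraries of mice 1 & 2 and 1.6, 1.2, 3.3 and 3.4 in those of mice 3 & 4. Every library of mice 1 & 2 was thus more than 10 times above every library of mice 3 & 4 (2.4 ± 1.1 against 74.7 ± 25.4 CPM, −4.92, SE 0.23, adjusted p = 2.48e-10). In basophil-like cells the libraries of mice 3 & 4 held 0 UMIs of Atf3 of 11671026, and those of mice 1 & 2 held 42 of 8572178, at least 19.1-fold lower with a floor of 3 counts over the 4 libraries.

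The Jun subunits moved less evenly across cell types. Jun was called lower in 13 of 17 types, and the exceptions were MPP-like, CLP-like, megakaryocyte progenitor-like and erythroblast-like cells. In basophil-like cells it had 1449, 2293, 1986 and 1799 CPM in the libraries of mice 1 & 2 and 737, 651, 861 and 558 in those of mice 3 & 4, with no overlap (−1.42, SE 0.14). Junb was called lower in 10 of 17 types, namely the 7 mature types and granulocyte progenitor-like, monocyte progenitor-like and MEP-like cells, and not in HSC-like, MPP-like, CLP-like, megakaryocyte progenitor-like, CFU-E-like or erythroblast-like cells or in the Mpo+ Cd34+ gate. In basophil-like cells Junb had 168 ± 29.0 against 662 ± 217 CPM (−1.94, SE 0.14, adjusted p = 5.77e-10). In HSC-like cells it had 710 ± 673 against 570 ± 308 CPM (−0.19, SE 0.27, adjusted p = 0.995). Jund, usually the most steadily expressed Jun gene, was called lower in 9 of 17 types, with log2 differences up to −1.20 in eosinophil-like cells.

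Fosl2 and Batf showed no call, in 0 of 13 and 0 of 11 types, with smallest adjusted p-values of 0.238 and 0.543. In monocyte-like cells Fosl2 had 66.3, 72.0, 70.5 and 66.2 CPM in the libraries of mice 1 & 2 and 75.3, 62.8, 62.8 and 61.7 in those of mice 3 & 4, so these libraries overlapped. The gap between libraries can be read against that between mice of 1 library. For Fos the median log2 gap was 0.60 between mice of 1 library and 1.85 between libraries of 1 group, for Fosb 0.69 and 1.51, for Jun 0.40 and 1.04, for Junb 0.43 and 1.10, for Jund 0.35 and 0.60, and for Atf3 0.78 and 2.47. For Fosl2 the gaps were 0.37 and 0.31, and for Batf 0.27 and 0.42. Tests over mice treat the mice of 1 library as separate samples, so their p-values may be too small, most of all for the members with wide library gaps.

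**Figure D2:**
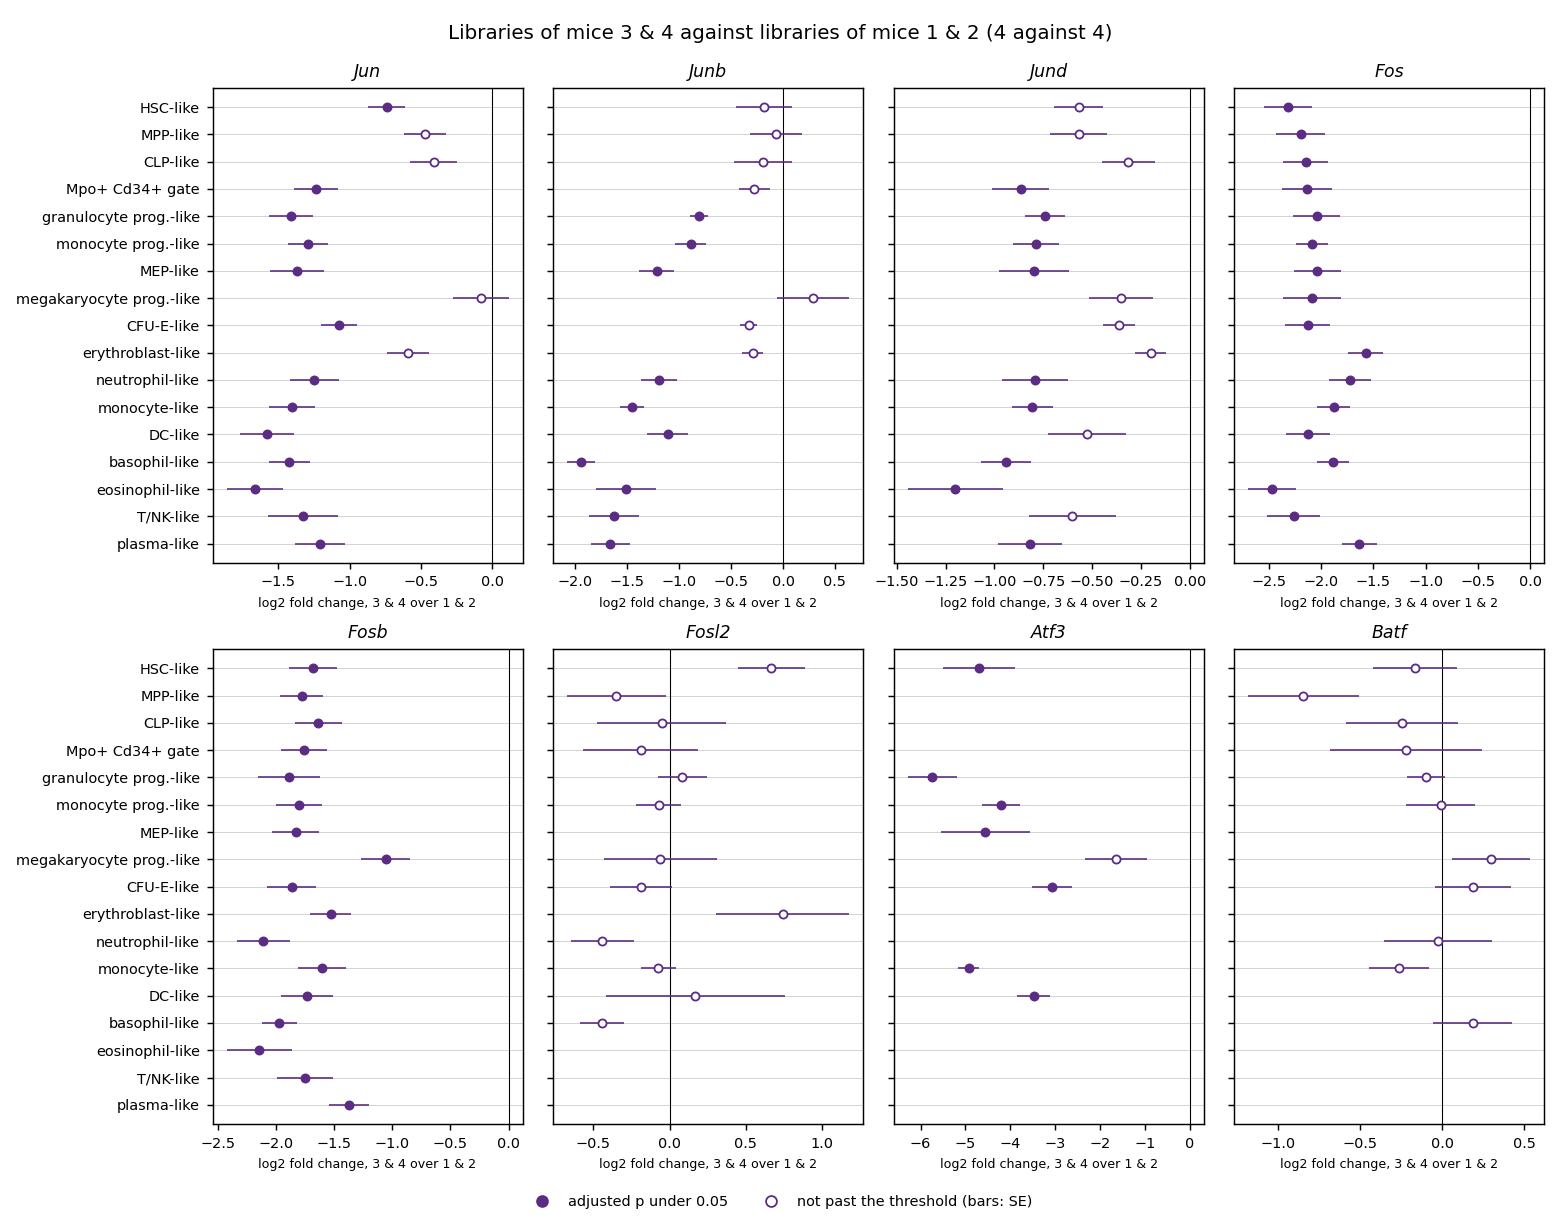
Log2 fold change of the libraries of mice 3 & 4 over those of mice 1 & 2 in 17 cell types, with SE bars (edgeR, groups held apart). Filled points passed the threshold, Atf3 in basophil-like cells is left out because 1 side had no UMI, and Fosl2 and Batf have no filled point.

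For some members the size of the gap also differed between vehicle and IL1β libraries. Each group has 1 library of each pair of mice, so treatment cannot be told apart from the libraries that were run. The library gap was known when the genes were chosen, so the counts here describe it. Fos was lower in the library of mice 3 & 4 in all 68 pairs of a group and a cell type, with a median log2 difference over types of −1.05 in WT vehicle, −2.54 in WT IL1β, −1.84 in Tet2-KO vehicle and −2.64 in Tet2-KO IL1β. When the library difference was fitted apart for vehicle and for IL1β, an alternative added after the data were seen, 12 of 118 tests of the members passed, against 0.145% of the 136159 tests over all genes. No test of Jun, Jund, Fosl2 or Batf was among those that passed. For Junb the difference was negative with vehicle and positive with IL1β in HSC-like, MPP-like, CLP-like and megakaryocyte progenitor-like cells, and negative with both in the other 13 types. In HSC-like cells the libraries of mice 1 & 2 and 3 & 4 had 247 and 106 CPM in WT vehicle and 441 and 164 in Tet2-KO vehicle, but 618 and 1160 in WT IL1β and 973 and 1412 in Tet2-KO IL1β. The vehicle difference was −1.34, the IL1β difference 0.72 and the difference of the differences 2.06 (adjusted p = 7.57e-05). For Fos in the same cells the differences were −1.62 and −3.03 (difference −1.41, adjusted p = 0.0287).

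Other gene groups were set beside the AP-1 genes in the library contrast. They were chosen with the library difference known, so their counts are descriptions. Over all genes, 0.924% of the 136159 tests were called. Immediate early partners were called lower in 94 and higher in 1 of 214 tests (44.4%). They were led by Egr1 (17 of 17 types, in DC-like cells 44.2 against 316 CPM) and Klf2 (16 of 17). Inhibitors and feedback genes were called lower in 55 and higher in 2 of 195 tests (29.2%). Dusp1, a phosphatase that turns off JNK and p38, led them (16 of 17 types, in DC-like cells 84.9 against 717 CPM). Btg2 (13) and Zfp36 (12) followed. Upstream kinases were called in 1 of 235 tests (0.426%) and the other AP-1 and dimer partner genes in 4 of 157 (2.55%). Of 8 heat-shock genes known to respond to tissue handling, 10 tests of 136 were called lower and 6 higher (11.8% called), with a median of 0.0899. Hspa1a was called lower in 7 of 17 types, the direction of Fos (in DC-like cells 268 against 684 CPM), and higher in megakaryocyte progenitor-like cells. The summed level of the 8 genes overlapped between the libraries of mice 1 & 2 and those of mice 3 & 4 in 16 of 17 types, for example from 4585 to 6760 and from 4673 to 6404 CPM in DC-like cells. In megakaryocyte progenitor-like cells the sum was higher in the libraries of mice 3 & 4 (4029 to 5138 against 5897 to 7286 CPM). Compared within each group, it was also higher in the library of mice 3 & 4 in every group in HSC-like and erythroblast-like cells. In WT vehicle HSC-like cells it was 4421 and 5022 CPM. Elsewhere its direction differed between groups. Their part in the library gap was not tested.

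IL1β was compared with vehicle within each genotype, with 3 or 4 mice per group and 16 cell types. Junb rose in HSC-like, MPP-like, CLP-like, CFU-E-like and erythroblast-like cells and in the Mpo+ Cd34+ gate of both genotypes, and the other members had few calls. In WT mice 12 of 98 tests of the members were called higher and 1 lower (13.3%), against 9.12% of the 99381 tests over all genes. In Tet2-KO mice 9 were called higher and 1 lower (10.2%), against 10.8%. The shares over the members are thus near those over all genes. Without the filter on low counts, 41 of 128 tests of the members were called in WT and 21 in Tet2-KO, against 4.13% and 4.8% of the 229618 tests over all genes in that fit. With the pool number (mice 1 & 2 or 3 & 4) as a replicate block, 18 were called higher and 1 lower in WT, and 10 higher and 8 lower in Tet2-KO, against 9.56% and 11.8% of the tests over all genes. The median log2 fold change was 0.58 over the members and 0.03 over all genes in WT, and −0.09 against 0.02 in Tet2-KO.

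Junb was higher in 16 of 16 types in WT (log2 fold change 0.58 to 2.61, median 1.57), of which 8 passed, and in 15 of 16 in Tet2-KO (median 0.66), of which 7 passed. In HSC-like cells the WT vehicle mice had 398, 0, 131 and 88.9 CPM and the WT IL1β mice 625, 799, 1234 and 816. The lowest IL1β mouse was above the highest vehicle mouse (869 ± 259 against 155 ± 171 CPM, log2 fold change 2.46, SE 0.41, adjusted p = 0.000338). The Tet2-KO vehicle mice had 682, 221, 187 and 151 CPM and the Tet2-KO IL1β mice 1453, 801, 1698 and 1395, again without overlap (2.06, SE 0.35, adjusted p = 0.000245). Without the WT vehicle library of mice 3 & 4, the WT fold change in HSC-like cells was 1.65 with an adjusted p of 0.161. The Tet2-KO call stood in all 24 fits that left out 1 mouse or 1 library of either genotype, with a fold change of at least 1.44. Fits that left out WT mice kept all Tet2-KO mice, so they could change the call only through filter, scaling and spread.

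Junb also rose in the multipotent and lymphoid progenitors of both genotypes. In MPP-like cells it rose by 2.61 in WT (SE 0.52, adjusted p = 0.00517) and by 1.46 in Tet2-KO (SE 0.39, adjusted p = 0.0202). In CLP-like cells the fold changes were 2.20 (SE 0.46, adjusted p = 0.00346) and 1.95 (SE 0.42, adjusted p = 0.00567). In the Mpo+ Cd34+ gate they were 2.00 (SE 0.35, adjusted p = 0.000631) and 1.60 (SE 0.30, adjusted p = 0.00177). The CLP-like rise in WT came mostly from the libraries of mice 3 & 4. Its fold change was 0.21 without the WT IL1β library of mice 3 & 4 and −0.47 within the libraries of mice 1 & 2 alone. Both fits left 1 WT IL1β mouse (148 CPM), since the other had 8 CLP-like cells. Over all cells the WT libraries of mice 1 & 2 had 189 CPM with vehicle and 237 with IL1β. Those of mice 3 & 4 had 80.3 and 730.

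Junb rose in erythroid cells as well. Erythroblast-like cells of WT mice had 46.8, 57.9, 39.4 and 29.3 CPM with vehicle and 224, 217, 192 and 201 with IL1β (2.36, SE 0.23, adjusted p = 6.82e-07). All IL1β mice were above 3 times the highest vehicle mouse. In Tet2-KO mice the change was 1.49 (133 ± 51.4, n = 3, against 52.1 ± 21.2 CPM, SE 0.25, adjusted p = 0.00213). CFU-E-like cells, the committed erythroid progenitors, rose by 2.10 in WT (154 ± 20.7 against 35.4 ± 9.0 CPM, adjusted p = 8.02e-05) and by 1.43 in Tet2-KO (123 ± 38.8 against 45.4 ± 20.2 CPM, adjusted p = 0.00115). Hashtags gave only 895 of 6517 erythroblast-like cells (13.7%) and 4786 of 12320 CFU-E-like cells (38.8%) to a mouse, against 63.3% or more in the other tested types. With all cells and the libraries as replicates, the erythroblast-like fold changes were 2.87 (adjusted p = 7.88e-07) and 2.40 (adjusted p = 7.61e-06).

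In myeloid and megakaryocytic progenitors Junb passed in 1 genotype only, and the difference between genotypes was not called for any of them. It rose in WT granulocyte progenitor-like cells (0.94, SE 0.30, adjusted p = 0.0209) and WT monocyte progenitor-like cells (1.28, SE 0.34, adjusted p = 0.0128). In Tet2-KO megakaryocyte progenitor-like cells the mice had 107, 63.8, 41.0 and 37.4 CPM with vehicle and 404, 213, 1186 and 662 with IL1β (3.26, SE 0.69, adjusted p = 0.0193). With the libraries as replicates these calls were lost (adjusted p = 0.154, 0.0996 and 0.124) at fold changes of 0.86, 1.18 and 3.16, as they were without the vehicle library of mice 3 & 4 of their genotype (adjusted p = 0.441, 0.325 and 0.136). With the pool number as a block, Junb also passed in Tet2-KO granulocyte progenitor-like (0.37, adjusted p = 0.0154) and WT MEP-like cells (1.47, adjusted p = 0.00793). Over all mice without the block, no Junb test passed in either genotype among mature types, from neutrophil-like to plasma-like cells. Their WT estimates were all positive, and more types passed within the libraries of mice 3 & 4 alone, as given below.

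**Figure D3:**
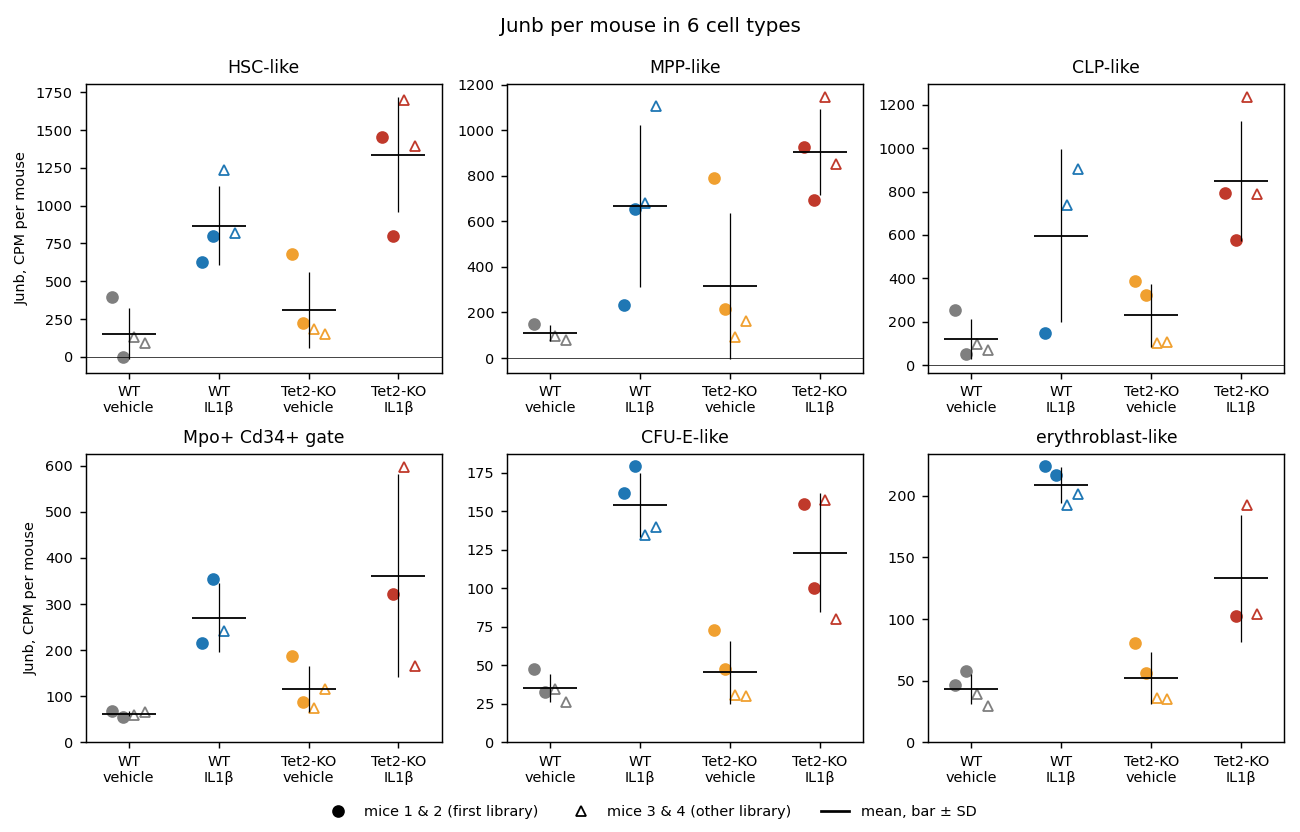
Junb in CPM per mouse in 6 cell types, with filled circles for mice 1 & 2, open triangles for mice 3 & 4, and the mean ± SD of each group. In HSC-like, CFU-E-like and erythroblast-like cells all IL1β mice lie above all vehicle mice of their genotype.

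Fits within libraries of 1 number were an alternative added after the data were seen. Each group then had 2 mice of 1 library, or 1 where the other had fewer than 10 cells. In the libraries of mice 1 & 2 a group had 1 mouse in CLP-like, MPP-like and erythroblast-like cells, among others. In these fits the IL1β change of Junb kept its direction in most types. It was positive in 15 of 16 WT types (6 called) in the libraries of mice 1 & 2 and in 16 of 16 (12 called) in those of mice 3 & 4, and in Tet2-KO in 15 of 16 types in each (3 and 10 called). Over all genes, 4.39% and 9.3% of the tests were called in WT and 4.91% and 11.1% in Tet2-KO in these fits. In HSC-like cells it was 1.24 (adjusted p = 0.381) and 3.28 in WT and 1.16 (adjusted p = 0.151) and 3.16 in Tet2-KO. Fos did not keep its direction. Its WT change was positive in 16 of 16 types within the libraries of mice 1 & 2 (5 called higher) and in 5 of 16 within those of mice 3 & 4 (1 called lower). Within the libraries of mice 3 & 4 the Tet2-KO change of Fosb was negative in all 16 types, 8 of them called.

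Over all mice, without the block, Fos had no call with IL1β in 16 types of either genotype. The WT fold changes were all positive (0.10 to 1.97, smallest adjusted p = 0.0810) and 14 of 16 Tet2-KO fold changes were negative. In CFU-E-like cells the WT mice had 40.1, 44.3, 32.9 and 20.7 CPM with vehicle and 231, 100.5, 32.1 and 61.2 with IL1β, so the groups overlapped. With the pool number as a block, Fos was called higher in these cells (1.35, adjusted p = 0.00916) and in WT erythroblast-like cells (1.00, adjusted p = 0.0466). Fosb had no call either, with 13 of 16 WT changes positive and 16 of 16 Tet2-KO changes negative (−0.07 to −1.24). Fosl2, whose product lacks the strong activation domain of Fos, rose in Tet2-KO HSC-like cells (58.5 ± 50.7 against 19.5 ± 12.5 CPM, 1.40, SE 0.43, adjusted p = 0.0273). The IL1β mice there had 27.1, 34.3, 134 and 38.3 CPM, and without the mouse at 134 the change was 0.72 with an adjusted p of 0.254.

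Among the other Jun subunits, Jund rose in WT CFU-E-like cells (139.5 ± 50.1 against 80.3 ± 13.9 CPM, 0.80, SE 0.20, adjusted p = 0.00662), erythroblast-like cells (0.58, SE 0.15, adjusted p = 0.0197) and HSC-like cells (0.87, SE 0.23, adjusted p = 0.0221). In HSC-like cells the vehicle mice had 450.1, 379, 387 and 264 CPM and the IL1β mice 860, 799, 421 and 533, so the groups overlapped. All 3 calls were lost without the WT IL1β library of mice 1 & 2 (adjusted p = 0.176, 0.211 and 0.536). Jun rose in WT CFU-E-like cells (192 ± 119 against 81.7 ± 26.0 CPM, 1.20, SE 0.39, adjusted p = 0.0368) and Tet2-KO megakaryocyte progenitor-like cells (1575 ± 695 against 645 ± 185 CPM, 1.28, SE 0.34, adjusted p = 0.0423). Without the WT IL1β library of mice 1 & 2 the first was 0.30 (adjusted p = 0.712), and without the Tet2-KO IL1β library of mice 3 & 4 the second was 0.67 (adjusted p = 0.521).

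Batf fell with IL1β in granulocyte progenitor-like cells of both genotypes. WT vehicle mice had 21.0, 22.4, 18.3 and 15.4 CPM and WT IL1β mice 12.7, 10.8, 9.5 and 8.5, with no overlap (−0.77, SE 0.16, adjusted p = 0.00155). Tet2-KO vehicle mice had 16.4, 17.4, 19.7 and 12.3 CPM and Tet2-KO IL1β mice 10.3, 11.9, 12.6 and 12.2, which overlapped at 1 mouse (−0.50, SE 0.14, adjusted p = 0.00875). The WT call stood in all 24 fits that left out 1 mouse or 1 library of either genotype, and the Tet2-KO call in 23. No other member was called lower without the block, but with the pool number as a block Jun (−0.88, adjusted p = 0.00153), Fosb (−0.98, adjusted p = 0.00903), Jund (−0.58, adjusted p = 0.00849) and Fos (−0.68, adjusted p = 0.0458) were called lower in Tet2-KO monocyte progenitor-like cells. None of these was called with the libraries as replicates, a fit without the block. Atf3 had no call in 4 types. In WT granulocyte progenitor-like cells it had 0 UMIs of 13372319 with vehicle and 82 of 27837438 with IL1β, at least 13.1-fold higher with a floor of 3 counts over the group (adjusted p = 0.0947 in the fit, 0.0169 with the pool number as a block). The 82 UMIs all came from the library of mice 1 & 2 (4.7 and 2.1 CPM), mice 3 and 4 were at 0 with IL1β too, and without that library there is no bound.

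**Figure D4:**
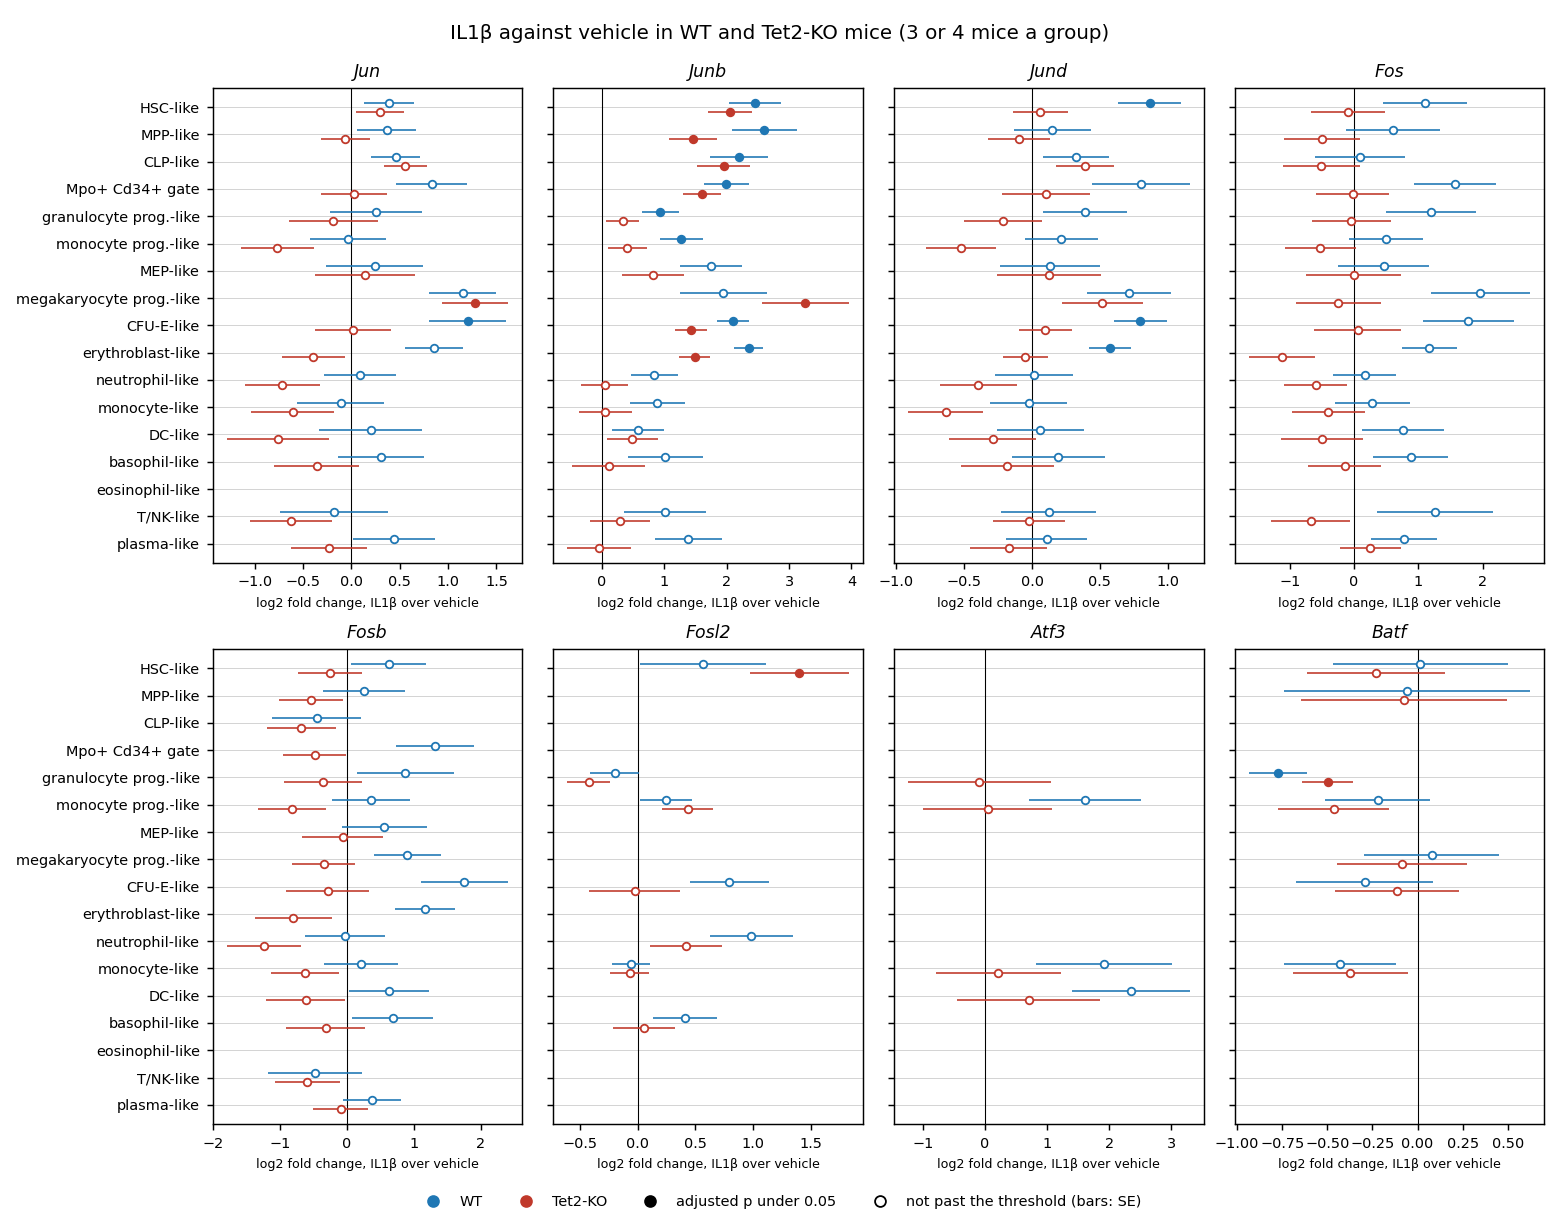
Log2 fold change of IL1β over vehicle for each AP-1 gene in up to 16 cell types, with SE bars, WT in blue and Tet2-KO in red. Filled points passed the threshold, Atf3 in WT granulocyte progenitor-like cells is left out because the vehicle mice had no UMI, and Junb holds 15 of the filled points.

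Many of these IL1β calls rested on single libraries. Without the WT vehicle library of mice 3 & 4, 5 of the 13 WT calls stood, and without the WT IL1β library of mice 1 & 2, 7 stood. Without the Tet2-KO vehicle library of mice 3 & 4, 2 of the 10 Tet2-KO calls stood, Junb in HSC-like and Batf in granulocyte progenitor-like cells, and without the Tet2-KO IL1β library of mice 3 & 4, 4 stood. For Junb in Tet2-KO cells without that vehicle library, the fold change was 0.74 in MPP-like (adjusted p = 0.377), 1.17 in CLP-like (0.220), 1.28 in the Mpo+ Cd34+ gate (0.122), 0.85 in CFU-E-like (0.133) and 0.88 in erythroblast-like cells (0.355). The WT calls of Junb in CFU-E-like and erythroblast-like cells and in the Mpo+ Cd34+ gate stood in all 24 fits that left out 1 mouse or 1 library of either genotype. For the gate, the fit without the WT IL1β library of mice 1 & 2 left 1 WT IL1β mouse.

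The pathway around AP-1 was compared over the same fits with gene lists. Inhibitors and feedback genes were called higher in 54 of 162 tests in WT (33.3%) and 47 in Tet2-KO (29%), and none lower, against the 9.12% and 10.8% of all tests. The leading genes were Nfkbia, the NF-κB inhibitor, in 13 of 16 WT and 12 of 16 Tet2-KO types (erythroblast-like WT cells 296 against 12.1 CPM, 4.27, SE 0.32), Zfp36l2 in 10 and 12, and Tsc22d3 in 9 and 12. Upstream kinases were called higher in 25 and lower in 1 of 190 tests in WT (13.7%) and higher in 31 in Tet2-KO (16.3%), with Tab2, an adaptor of TAK1, called in 7 and 9 types. Immediate early partners were called higher in 24 and lower in 1 of 184 tests in WT (13.6%). In Tet2-KO 23 of their tests were called higher and 4 lower (14.7%), and the 4 lower calls were all Klf4. Ier3 was called in 9 types of each genotype. The other AP-1 and dimer partner genes were called higher in 10 and 11 of 117 tests (8.55% and 9.4%), below the shares over all genes, among them Nfe2, the erythroid and megakaryocytic partner of the small Maf proteins. The 8 heat-shock genes were called lower in 10 and 27 of 127 tests and higher in 0 and 1 (7.87% and 22% called).

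Tet2-KO and WT mice were then compared under each treatment. Without the block no member passed in either comparison, in 98 tests each, against 0.0312% (vehicle) and 0.142% (IL1β) of the 99381 tests over all genes called by edgeR. DESeq2 and the fit with libraries as replicates also gave 0 calls of the members, while the edgeR fit without its filter on low counts gave 31 of 128 with vehicle and 13 with IL1β, against 0.17% and 0.378% of the tests over all genes in that fit. At an unadjusted p under 0.05 there were 30 tests of the members with vehicle and 11 with IL1β, against 4.07% and 7.21% of the tests over all genes. With vehicle the median log2 difference was 0.66 over the members and 0.01 over all genes, and the estimates were positive in 16 of 16 types for Jun, Jund, Fos and Fosb and in 15 for Junb, but in 3 of 7 types each for Fosl2 and Batf. Cell types share the same mice and libraries, so counts of types in this and the other comparisons are not independent observations. With vehicle the median over types for Fos was 1.39 within the libraries of mice 1 & 2 and 0.41 within those of mice 3 & 4. With IL1β the members had a median of −0.03. The 8 heat-shock genes moved the same way with vehicle, with a median of 0.37 and 42 of 127 tests at an unadjusted p under 0.05, 0 of them called. With IL1β their median was 0.09 and 5 tests were called higher. Their part in the genotype differences was not tested.

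The smallest p in the vehicle comparison was that of Jund in HSC-like cells. The WT mice had 450.1, 379, 387 and 264 CPM and the Tet2-KO mice 960, 622, 633 and 539. All Tet2-KO mice were above all WT mice (0.94, SE 0.22, adjusted p = 0.347). With the pool number as a block it was the 1 call of a member in this comparison (0.85, SE 0.16, adjusted p = 0.0205), against 0.0392% of the tests over all genes. Within the libraries of mice 1 & 2 the difference was 0.87 (adjusted p = 0.316), and within those of mice 3 & 4 it was 0.85 (adjusted p = 0.0329). Jun in MPP-like cells also separated the groups (1428 ± 843 against 588 ± 76.2 CPM, 1.27, SE 0.30, adjusted p = 0.577). For Fos in HSC-like cells the WT mice had 502, 474, 419 and 135 CPM and the Tet2-KO mice 2213, 934, 508 and 219, which overlapped (1.47, SE 0.65, adjusted p = 1.00). Within the libraries of mice 1 & 2 Fos and Fosb were each positive in 15 of 16 types with 5 calls, and within those of mice 3 & 4 in 15 and 14 types with 1 call each. These fits again had 1 or 2 mice of 1 library per group. Over the members there were 13 and 5 calls with vehicle, against 0.388% and 0.675% over all genes, and 7 and 12 with IL1β, against 0.849% and 2.7%.

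**Figure D5:**
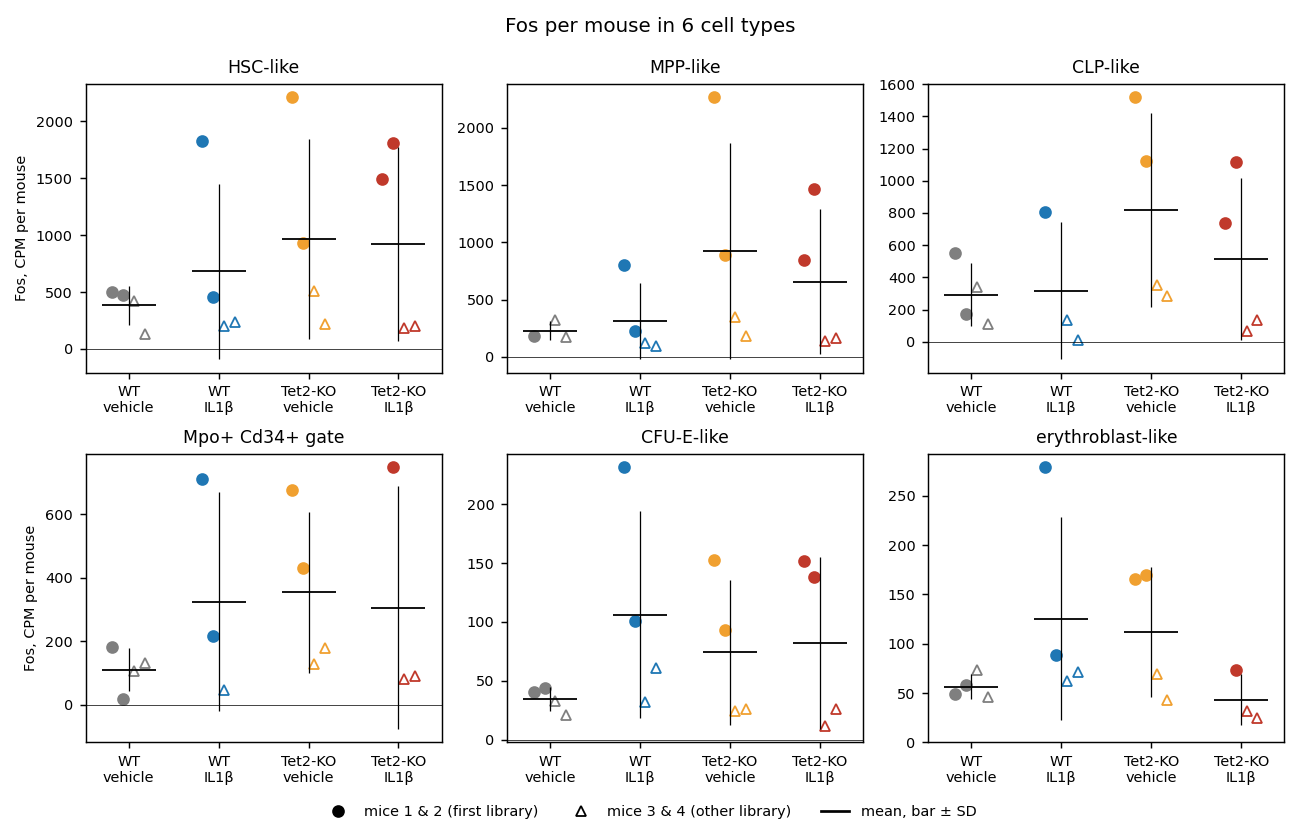
Fos in CPM per mouse in 6 cell types, with filled circles for mice 1 & 2, open triangles for mice 3 & 4, and the mean ± SD of each group. In most groups both circles lie above both triangles, so the SD bars largely show the gap between libraries.

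Whether the IL1β response of the members depended on the genotype was tested as an interaction. None of 98 tests passed, against 0.0101% of the tests over all genes, and DESeq2 and the fit with libraries as replicates gave 0 as well, while the fit without the filter on low counts gave 18 of 128, all negative, against 0.105% over all genes. Within the libraries of mice 1 & 2 there were 7 calls, Fos in 3 types among them, and within those of mice 3 & 4 there were 9, among them Fosb in 4 types and Fos in 2. All were negative, against 0.259% and 0.268% of the tests over all genes, and rested on 1 or 2 mice of 1 library per group. At an unadjusted p under 0.05 there were 11 tests, against 4.43% over all genes. The estimates of Fos and Fosb were negative in 16 of 16 types, with medians of −1.15 and −1.09, though these types share the same mice and libraries. The IL1β change itself had a median over types of 0.83 in WT and −0.32 in Tet2-KO for Fos, and of 0.59 and −0.51 for Fosb. The smallest p was that of Fos in erythroblast-like cells, where WT mice had 48.7, 57.9, 73.4 and 45.9 CPM with vehicle and 279, 88.7, 62.7 and 70.8 with IL1β. Tet2-KO mice had 166, 170, 69.0 and 42.6 with vehicle and 73.3, 31.8 and 25.0 with IL1β, in 3 mice (interaction −2.29, SE 0.67, adjusted p = 0.534). These values rest on the 13.7% of erythroblast-like cells given to a mouse. Over all cells the libraries of mice 1 & 2 and 3 & 4 had lower levels, 19.4 and 11.3 CPM in WT vehicle, 67.8 and 18.1 in WT IL1β, 42.9 and 13.1 in Tet2-KO vehicle and 28.8 and 7.6 in Tet2-KO IL1β. Junb had 15 of 16 estimates below 0 (median −0.76, smallest adjusted p = 0.758).

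The genes most like each member were found among the 6252 genes with enough counts, by correlation of log2 CPM. Over the 136 combinations of library and cell type, the mean of each group within a cell type was taken out. These correlations thus rest on the difference between the libraries of a group alone, without genotype or IL1β. Fos was most like Fosb (r = 0.95), Klf6 (0.94) and Egr1 (0.92). Jun was most like Egr1 (0.95), Dusp1 (0.94) and Ier2 (0.93), and Jund like Dusp1 (0.91). The points of 1 library share its depth and its mice. Junb followed other genes, Kdm6b (0.76), Mcl1 (0.75) and Jund (0.73), less closely. Fosl2 and Batf had no gene above 0.60 (Zeb2, 0.57, and Tnfrsf1a, 0.59). Over the levels of 17 cell types in WT vehicle mice, Jun was most like Fosb (0.93), Fos like Zfp36 (0.94), Junb like Prdm2 (0.95), Fosl2 like Map7d1 (0.86) and Atf3 like Aif1 (0.92), a monocyte and macrophage gene.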

How the data were processed

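Droplet 3′ libraries (Chromium v3.1) of lineage-depleted marrow were read as the UMI counts per gene and barcode that the authors deposited; per the labels, these came from Cell Ranger 3.1.0 on mm10, and Seurat 3.2.3 was used downstream. Nothing else was done to the counts before deposit as far as the sources used here say, and the count matrices carry the hashtag rows. Cells with at least 750 genes and at most 10% mitochondrial UMIs were kept. Hashtags were called with HTODemux (Seurat 5.3.0), doublets (4.149%) were removed, and 34.9% of cells had no hashtag call and entered only the sums per library. Cell types were rebuilt from gates of marker genes, since the files used here give none, so they may differ from those of the study.

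Counts were summed per cell type over the cells of each mouse (at least 10 cells, at least 3 mice per group, 16 types) or each library (17 types), scaled by TMM and fitted in edgeR 4.0.16 (R 4.3.3, quasi-likelihood F-test) over all genes past its low-count filter, with Benjamini-Hochberg adjustment within a cell type and comparison. A test counted as called at an adjusted p under 0.05. Group effects were fitted over mice. The library contrast was fitted over the 8 libraries with group as a covariate. Levels between cell types are CPM without TMM, and neighbouring types were compared with an exact sign-flip permutation test. The genes named were the 8 members, the leading genes of each list by calls, and genes from the 3 most like each member, of which 1 is not reported here. The members and lists were chosen with earlier results of these data known, and the library difference was part of those results. Alternatives were DESeq2 1.42.0, RLE factors, no low-count filter, 30 cells per mouse, other gates, a mitochondrial limit of 5%, a hashtag ratio, libraries as replicates, the replicate block and leaving out mice or libraries. Fits within libraries of 1 number and by treatment were added after the data were seen. The former had 1 or 2 mice per group in a cell type.

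The fits were tested on simulated data with 200 changed genes. The simulated mice had no gap between libraries of a group, so the shares of the mouse fits need not hold for genes that differ between libraries, among them members with wide library gaps. In the mouse fit of HSC-like cells (6058 genes), the fit recovered 54.6% of genes with a log2 change of 1 and 98.9% of those with a change of 2. In the mouse fit of granulocyte progenitor-like cells (10430 genes) the shares were 96% and 100%, and in the library fit of HSC-like cells (8655 genes) 79.4% and 95.9%. Mice with the same replicate number in different groups did not deviate together over the more abundant genes (median r −0.00516 over 342 pairs, 71 of them over 0.1), so the numbers were not taken to pair mice. The AP-1 genes did differ by pool number, with Fos lower in mice 3 & 4 in 68 of 68 pairs. These genes were chosen with the library difference known, and the pairs come from the same libraries. That count therefore describes the gap and gives no independent ground for a block by pool number. Counts with that block are given beside the others, and calls found only with it rest on that choice. The replicates are mice, 2 to a library, and p-values measure the spread between these mice. Over the more abundant genes, deviations from the group mean had a median r of 0.0306 between mice of 1 library (113 pairs). Between mice of 1 group in other libraries it was −0.558 (226 pairs). Mice of 1 library were thus more alike, so p-values over mice, and the shares called over all genes, need not hold for independent mice. UMIs per mouse and cell type ran from 30344 (HSC-like) to 14682102 (granulocyte progenitor-like), which limits the rarer types and Atf3, Fosl2 and Batf most. Sequences of promoters are from RefSeq (GRCm38.p6), in which all 8 members matched, and gene positions are from GRCm38.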

Additional observations from a re-analysis of the deposited data

Results flagged for a closer look

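In 4 of 58 groups of 4 mice checked, 1 mouse stood apart from the other 3 by Dixon's test, which flags about 1 in 20 groups by chance. Junb in HSC-like cells of Tet2-KO vehicle mice was 682 CPM in replicate 1 and 151 to 221 in the others. Junb in megakaryocyte progenitor-like cells of WT vehicle mice was 389 CPM in replicate 1 and 31.9 to 43.4 in the others. Junb in monocyte progenitor-like cells of WT vehicle mice was 119 CPM in replicate 1 and 34.8 to 48.4 in the others. Fosl2 in HSC-like cells of Tet2-KO IL1β mice was 134 CPM in replicate 3 and 27.1 to 38.3 in the others.

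In 12 of 118 tests the difference between libraries of mice 3 & 4 and 1 & 2 itself differed between IL1β and vehicle, with adjusted p under 0.05 (edgeR). For Junb the difference was higher with IL1β, by 2.76 on the log2 scale in megakaryocyte progenitor-like cells (−1.37 with vehicle, 1.39 with IL1β), by 2.39 in CLP-like cells (−1.43 and 0.96), by 2.06 in HSC-like cells (−1.34 and 0.72) and by 2.06 in MPP-like cells (−1.33 and 0.73). For Fos it was lower, by −1.59 in CLP-like cells, −1.60 in DC-like cells, −1.41 in HSC-like cells, −1.49 in MEP-like cells and −1.85 in the Mpo+ Cd34+ gate. For Fosb it was lower by −1.34 in HSC-like cells and −1.41 in MEP-like cells, and for Atf3 by −3.72 in DC-like cells. Each treatment has 4 libraries, and the pool number cannot be told apart from the mice in it.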

How the results depend on the processing

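The count of members lower in libraries of mice 3 & 4 stayed between 62 and 80 in every alternative fitted for that contrast. Those alternatives left out whole groups, but no single mouse or library. No alternative fitted over all mice with the low-count filter gave more than 1 call for Tet2-KO against WT or the interaction, apart from fits that left out a mouse or library. Without the low-count filter there were 31 (Tet2-KO against WT with vehicle), 13 (with IL1β), 41 (IL1β in WT), 21 (IL1β in Tet2-KO) and 18 calls (interaction). With the replicate block by pool number there were 1 with vehicle and 18 for IL1β in Tet2-KO; by mouse number 1, 1 with IL1β and 17. The numbers were not taken to pair the mice, and the block changed no other call beyond 1.5 times (IL1β in WT 19 and 18). At least 30 cells per mouse left 7 and 5 IL1β calls in WT and Tet2-KO. Leaving out a mouse or library gave 0 to 6, 0 to 1, 5 to 18, 2 to 26 and 0 to 1 calls in the order above; the extremes were 6 without the Tet2-KO vehicle library of mice 3 & 4, 5 without the WT vehicle library of mice 3 & 4, and 2 and 26 without the Tet2-KO vehicle library of mice 3 & 4 and the Tet2-KO IL1β library of mice 1 & 2. Within libraries of mice 1 & 2 alone there were 13, 7, 22, 6 and 7 calls, and within those of mice 3 & 4 alone 5, 12, 16, 37 and 9. Libraries as replicates gave 0, 0, 11, 8 and 0. Junb in CLP-like cells, IL1β in WT, reversed to −0.47 within libraries of mice 1 & 2, where only 1 WT IL1β mouse had enough cells. In WT vehicle libraries alone, 83 of 128 neighbouring pairs of cell types kept their order. Of single results, 1385 kept their call, 143 lost it, 1 moved and 1 reversed. The causes were not tested.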
